A study of Mus musculus with 18 samples.

Results

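Mouse mammary organoids lacking RasGRP1 were compared with wild-type organoids in a medium whose added growth factors were Wnt and R-spondin, without EGF. The comparison used the 3 knockout libraries (KO) and the 3 wild-type libraries (WT) of this medium, 6 of the 18 libraries of the series, and covered the 17092 genes of 55536 that passed the filter on low counts. The labels name the medium as RW, which holds a surrogate Wnt (NGS-Wnt, 0.1 nM) and R-spondin 2 (Rspo2, 8.3 nM). The other media of the series hold EGF at 2.5 nM (EGF medium) or EGF with NGS-Wnt and Rspo2 (ERW medium). All organoids were grown from mammary glands of C57BL/6 mice aged 6 to 7 weeks, in matrigel with DMEM/F12, insulin, transferrin and selenium, and were treated for 5 days. Each of the 3 batches given by the labels holds 1 library of every genotype and medium, so a KO and a WT library of the same batch form a pair. The design of the RasGRP1-/- allele, the strain history of the mutant line, and whether KO and WT mice were littermates or several mice were pooled were not given in the sources used here.

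RasGRP1 is a guanine nucleotide exchange factor: it loads Ras with GTP in response to diacylglycerol and calcium, and active Ras signals through the RAF, MEK and ERK kinases. It is best known from T cells, and in epithelia it works beside the SOS exchange factors that couple the EGF receptor to Ras. Wnt ligands bind Frizzled and LRP receptors and stabilise beta-catenin, and R-spondins bind LGR receptors and keep the Frizzled receptors at the cell surface. In the mammary gland this pathway is known for the upkeep of basal and stem cells.

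The 6 libraries held 25156341 to 29502663 counts and 18926 to 22319 genes with at least 1 count, and 1.44 to 2.26% of counts came from mitochondrial genes. All 8 epithelial markers examined, among them the keratins Krt5, Krt14, Krt8 and Krt18, were present, with summed levels in counts-per-million (CPM, scaled to normalised library size) of 7918 to 10530 in KO and 8306 to 11000 CPM in WT. Markers of other cells were present at lower summed levels, for instance 1289 to 3102 CPM over 14 fibroblast genes and 229 to 366.9 CPM over 14 myeloid genes. Cd3e, Cd3d and Ms4a1, which define T and B lymphocytes, had 0 counts in all 6 libraries. In these bulk samples fewer cells of a type and less RNA per cell cannot be told apart. The labels do not say whether the cultures of a group came from separate animals, so the p-values measure the spread between cultures. That spread was estimated over all 18 libraries of the series, not over the 6 of this medium alone.

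Rasgrp1 itself (ENSMUSG00000027347, chr2:117279993-117343001, GRCm38) was barely expressed in this medium. WT libraries of batches 1, 2 and 3 had 28, 10 and 25 counts, and KO libraries 0, 0 and 9. The WT values lay above all KO values, at 0.698 ± 0.308 CPM (SD, n = 3) against 0.0991 ± 0.172 CPM (SD, n = 3). The fitted log2 difference, KO minus WT, was -3.36 ± 1.24 (SE), with an unadjusted p of 0.0149 in edgeR's quasi-likelihood test and an adjusted p of 0.894, so Rasgrp1 was not called. The 9 counts in KO batch 3 cannot be read further, because the deleted part of the gene is not given in the sources used here. Of the other exchange factors for Ras, Sos1 (-0.07 ± 0.08), Sos2 (0.16 ± 0.08) and Rasgrp3 (0.26 ± 0.22) were also not called on the log2 scale, and their names were chosen after their values were seen.

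Few genes were called between the genotypes, which does not show that the rest were alike. By edgeR's quasi-likelihood test with batch as a block, 14 of the 17092 genes tested (0.0819%) were called at an adjusted p under 0.05, 11 higher (0.0644%) and 3 lower (0.0176%) in KO. At an unadjusted p under 0.05 there were 889 genes (5.2%), 500 higher (2.93%) and 389 lower (2.28%). The median log2 difference over all genes tested was -0.002, and the median SE of a gene was 0.175. Of the 14 called genes, 6 lie within 10 Mb of Rasgrp1 on chromosome 2 and 8 on other chromosomes. Mapkbp1, Ehd4, Tmem87a, Ppip5k1 and Bloc1s6 rose and Eif3j1 fell among the chromosome 2 genes. Elsewhere Pcna-ps2, Eif3j2, Gm7658, Gm18234, Dynlt1b and Ripply1 rose, and Ide and Wdfy1 fell. The authors' deposited table of the same comparison calls 131 of 30170 genes at the same threshold, among them all 14, but 84 of the 131 have under 10 counts in the 6 libraries together.

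**Figure D1:**
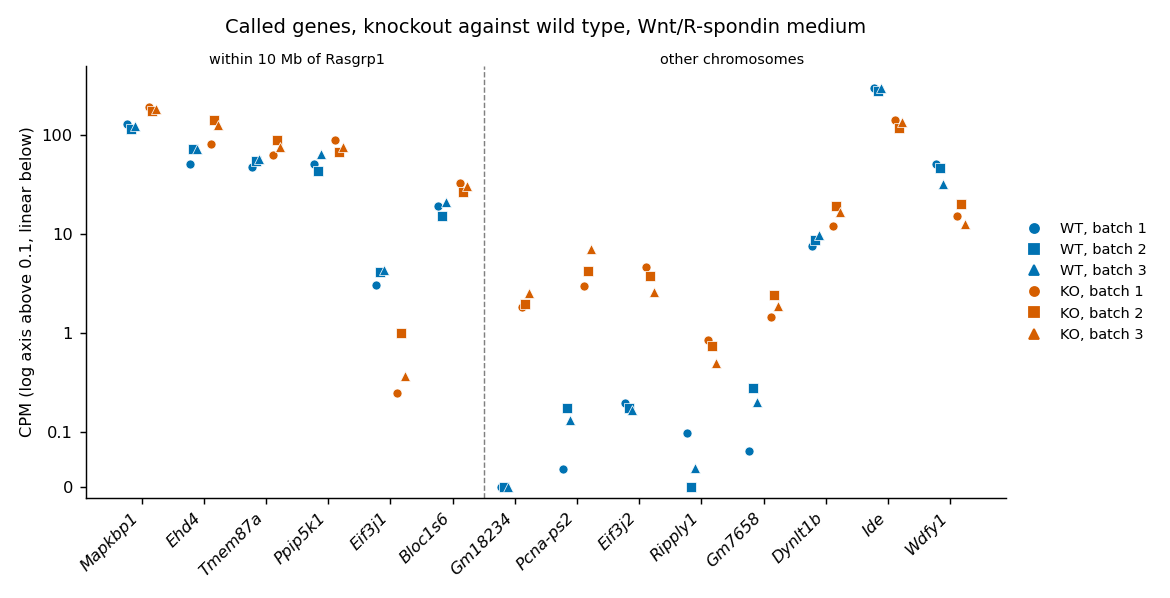
Level of the 14 called genes in CPM (log axis above 0.1 and linear below) in each library of the Wnt/R-spondin medium, with genes within 10 Mb of Rasgrp1 left of the dashed line and symbols marking batches. The KO and WT libraries do not overlap for any of the 14 genes, and Gm18234 sits at 0 in all 3 WT libraries.

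The number of calls rested on the full set of libraries and on the batch block. With the 6 libraries of this medium alone only Ide was called, and without the batch block 5 genes were called, Ide, Eif3j2, Pcna-ps2, Gm7658 and Gm18234. DESeq2 called 77 genes, which include all 14, and 45 of its other 63 calls had under 30 counts in the 6 libraries. No called gene changed direction under any of the 16 alternatives, and Ide kept its call under all 16.

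Genes on chromosome 2 near Rasgrp1 were treated apart from the rest. Of 163 genes tested within 10 Mb of Rasgrp1, 6 were called (3.68%, against 0.0819% of all genes tested) and 39 had an unadjusted p under 0.05 (23.9%, against 5.2%). The called genes all lay 2 to 6 Mb from Rasgrp1, where 6 of 87 were called and 25 (28.7%) had an unadjusted p under 0.05. In the first 2 Mb, Rasgrp1 included, 8 of 36 genes had an unadjusted p under 0.05 and none was called by edgeR. From 6 to 10 Mb it was 6 of 40, from 10 to 20 Mb 13 of 137 (9.49%), and beyond 20 Mb on chromosome 2 5.41%. On other chromosomes the share was 4.96%. The side of Rasgrp1 with higher coordinates held all 6 calls among 132 genes, and 35 of these had an unadjusted p under 0.05, whereas the other side had 3 of 30. Both directions were present, with 21 of the 39 genes higher and 18 lower in KO. Rasgrp1 itself is counted in the 163 genes tested, and in the 39 and the 18 at an unadjusted p under 0.05. No test of these shares was made, since neighbouring genes are not independent.

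Mapkbp1, a scaffold protein of the JNK pathway, and Ehd4, an ATPase of endosome recycling, were the called genes closest to Rasgrp1. Mapkbp1 (ENSMUSG00000033902, chr2:119972699-120027408) stood at 127.6, 113.8 and 122.1 CPM in WT and 192.3, 175.7 and 184.2 CPM in KO batches 1 to 3. All KO libraries lay above all WT libraries, with a 1.52-fold ratio and a log2 difference of 0.60 ± 0.09 (SE; edgeR adjusted p = 0.00411). Ehd4 (ENSMUSG00000027293, chr2:120089175-120154606) had 50.6, 71.5 and 71.2 CPM in WT and 81.3, 141.3 and 124.4 CPM in KO. It was higher in KO in each batch, by 0.83 ± 0.09 on the log2 scale (edgeR adjusted p = 0.000162). The Mapkbp1 call was lost without KO library 3, WT library 1 or WT library 2, with edgeR adjusted p-values of 0.0537, 0.0522 and 0.0629. It was also lost without batch 1, 2 or 3 (0.219, 0.186 and 0.0519). The Ehd4 call withstood the loss of any single library but not of batch 3 (0.0519).

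Tmem87a, a membrane protein of the Golgi, Ppip5k1, a kinase that makes inositol pyrophosphates, and Bloc1s6, a subunit of the BLOC-1 complex that sorts cargo to lysosome-related organelles, rose as well. Tmem87a (chr2:120355312-120404113) rose from 53.1 ± 5.06 to 75.2 ± 12.4 CPM (SD, n = 3 each), 0.50 ± 0.08 on the log2 scale (edgeR adjusted p = 0.0171). Ppip5k1 (chr2:121310561-121355396) rose from 52.7 ± 10.3 to 76.8 ± 10.16 CPM, 0.55 ± 0.10 (edgeR adjusted p = 0.0381). Bloc1s6 (chr2:122738503-122749475) rose from 18.4 ± 2.86 to 30.1 ± 3.17 CPM, 0.72 ± 0.12 (edgeR adjusted p = 0.0272). All 3 pairs had the higher value in KO for each of these genes. These calls were less firm than that of Ehd4. Leaving out single libraries ended the Bloc1s6 call in all 6 cases (adjusted p 0.0882 to 0.332), that of Ppip5k1 in all cases but the loss of WT library 3 (0.0705 to 0.437), and that of Tmem87a without KO library 2 or 3 or WT library 1 or 2 (0.0537 to 0.185).

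Other neighbours of Rasgrp1, several of them known from signalling, were not called by edgeR. Spred1, an inhibitor of Ras-ERK signalling 0.0977 Mb from Rasgrp1, had 73.7, 84.7 and 88.8 CPM in WT and 78.3, 113.5 and 93.6 CPM in KO (log2 difference 0.21 ± 0.10, unadjusted p = 0.0636). Fam98b, the nearest gene tested, stood at 41.5 ± 6.14 CPM in WT and 41.1 ± 7.24 CPM in KO. Lgr4, an R-spondin receptor 7.27 Mb away, had 138.0 to 160.7 CPM in WT and 162.6 to 185.4 CPM in KO, groups that do not overlap, with a log2 difference of 0.19 ± 0.11 (unadjusted p = 0.102). Spint1, an inhibitor of the protease matriptase, was at 128.4 to 145.0 CPM in WT and 172.6 to 176.2 CPM in KO (0.35 ± 0.08, adjusted p = 0.423). Chp1, a calcium-binding partner of sodium-proton exchangers, was at 92.7 to 110.1 CPM in WT and 71.8 to 83.2 CPM in KO (-0.41 ± 0.08, edgeR adjusted p = 0.149; 0.0102 with DESeq2). Tyro3, a receptor tyrosine kinase, was at 183.6 to 236.9 CPM in WT and 136.5 to 178.9 CPM in KO (-0.40 ± 0.10, adjusted p = 0.423). Pla2g4b, a phospholipase gene, had 1.21, 1.31 and 0.133 CPM in WT and 0 in every KO library (edgeR adjusted p = 0.293; 0.00758 with DESeq2). These neighbours were named after their values were seen, and groups did not overlap for 4.12% of all genes tested (2% with KO higher and 2.12% with KO lower).

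**Figure D2:**
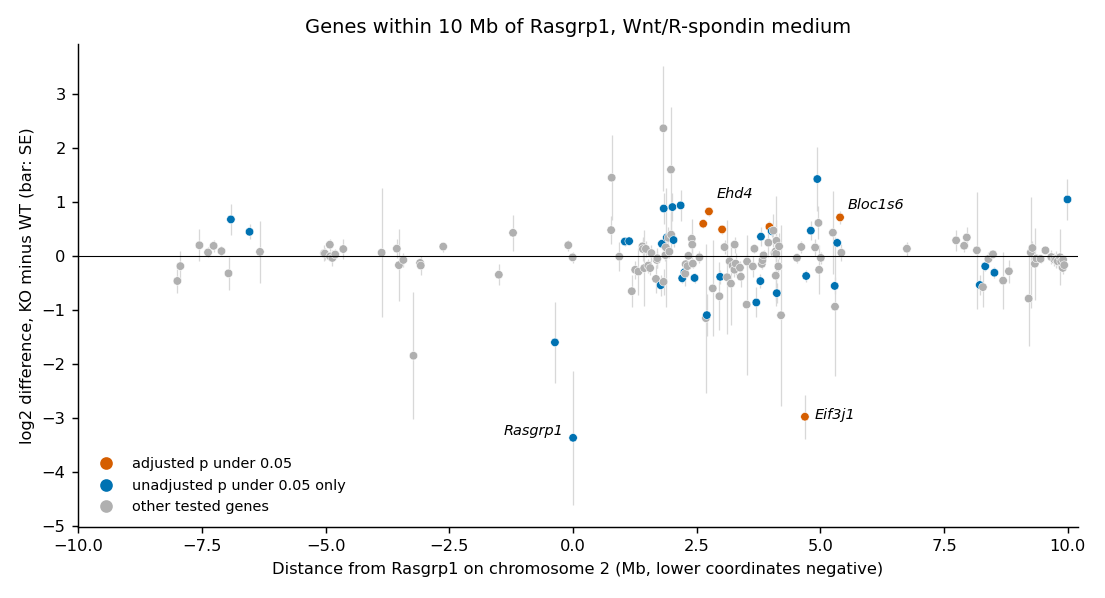
Log2 difference (KO minus WT, bar: SE) of the genes tested within 10 Mb of Rasgrp1 against their distance from it in Mb, with orange for an adjusted p under 0.05 and blue for an unadjusted p under 0.05 only. The 6 called genes lie on the side with higher coordinates, 2.63 to 5.4 Mb away; Pla2g4b, at 0 counts in KO, is not drawn.

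Of the 8 called genes on other chromosomes, 4 are close copies of a gene on chromosome 2. The closest match of each to other transcripts of the GENCODE M21 annotation (blastn, with most of the transcript aligned) was Eif3j1 for Eif3j2, Pcna for Pcna-ps2, Eif3m for Gm7658 and Zfp106 for Gm18234, genes that lie 3.16 to 14.9 Mb from Rasgrp1. The annotation lists Pcna-ps2, Gm7658 and Gm18234 as processed pseudogenes, which are copies of spliced transcripts set back into the genome, and Eif3j2 as protein coding. The table gives Gm18234 only as ENSMUSG00000116926 without a symbol. Identity over the aligned bases was 99.2% for Pcna-ps2 with Pcna (781 bases, 6 mismatches), 99.4% for Eif3j2 with Eif3j1 (2379 bases), 98.5% for Gm7658 with Eif3m (1125 bases, 16 mismatches) and 88.4% for Gm18234 with Zfp106 (1059 bases). Reads were 50 bases long, and the stretches below, of that length, show bases that can tell a read of a copy from one of its parent. They were picked as the stretches of the coding part with the most differences, so others hold as many or fewer. They are read 5′ to 3′ in the sense of the transcript from GENCODE M21 (GRCm38), with differing bases in capitals. Pcna (chr2:132249162-132253314) and Pcna-ps2 (chr19:9283380-9284160) differ here at 2 of the 6 bases that differ over the whole alignment, Eif3m (chr2:104999656-105017080) and Gm7658 (chr1:21511933-21513056) at 4 of 16, and Zfp106 (chr2:120506820-120563843) and Gm18234 (chr16:27843362-27844412) at 12 of 92.
Pcna: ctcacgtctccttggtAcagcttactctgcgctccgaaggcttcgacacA
Pcna-ps2: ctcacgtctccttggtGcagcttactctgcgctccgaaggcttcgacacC
Eif3m: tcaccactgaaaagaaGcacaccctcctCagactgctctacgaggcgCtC
Gm7658: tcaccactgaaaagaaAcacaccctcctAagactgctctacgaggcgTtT
Zfp106: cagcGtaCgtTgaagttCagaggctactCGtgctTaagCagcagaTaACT
Gm18234: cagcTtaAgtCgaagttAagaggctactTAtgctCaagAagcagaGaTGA

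How far a 50-base read could separate copy and parent differed between the pairs. Of all runs of 50 bases in a transcript, 91.8% of those of Eif3j2, 63.8% of Pcna-ps2, 42.8% of Gm7658 and 0.998% of Gm18234 also occur in the transcript of another gene, as do 54.8% of those of Eif3j1. For Pcna-ps2 this share, its identity with Pcna and its position above are those of the GENCODE M21 transcript. The deposited coordinates give a longer gene, chr19:9283238-9284494, whose further bases were not compared. How reads matching several genes were counted is not given in the sources used here, so the values of Eif3j1, Eif3j2, Pcna-ps2 and Gm7658 are uncertain in this respect.

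Eif3j1 and Eif3j2 encode the loosely bound j subunit of the translation initiation factor eIF3, and they moved in opposite directions. Eif3j1 (ENSMUSG00000027236, chr2:122028546-122056598) had 93, 118 and 131 counts in WT and 7, 24 and 11 in KO, a log2 difference of -2.97 ± 0.41 (edgeR adjusted p = 0.00312). Eif3j2 (ENSMUSG00000043424, chromosome 18) had 6, 5 and 5 counts in WT and 133, 90 and 79 in KO, a log2 difference of 4.31 ± 0.39 (edgeR adjusted p = 2.99e-05). In both genes every KO library lay apart from every WT library. The sum of the pair was 4.0 ± 0.67 CPM in WT and 4.18 ± 1.05 CPM in KO (SD, n = 3), a difference within the spread of the libraries. Without KO library 3 the Eif3j1 call was lost (edgeR adjusted p = 0.0537), as it was without batch 1 (0.153) or batch 3 (0.853). Eif3j2 kept its call without any single library or batch.

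The other copies rose, and their chromosome 2 parents were not called. Pcna-ps2 (ENSMUSG00000067608) had 1, 5 and 4 counts in WT and 86, 103 and 212 in KO, a 39.9-fold fitted ratio and a log2 difference of 5.32 ± 0.66 (edgeR adjusted p = 0.0012). No single library ended this call. It was lost without batch 2 or batch 3 (edgeR adjusted p = 0.112 and 0.191) and with the 6 RW libraries alone (0.0689). Pcna, the sliding clamp of DNA replication, was at 53.3, 77.6 and 78.1 CPM in WT and 36.6, 76.0 and 79.2 CPM in KO (-0.17 ± 0.15, adjusted p = 0.908). Gm7658 (ENSMUSG00000082935) had 2, 8 and 6 counts in WT and 41, 59 and 56 in KO (3.43 ± 0.50, edgeR adjusted p = 0.00524). Its call was lost without WT library 1 (edgeR adjusted p = 0.0522) and without batch 1, 2 or 3 (0.219, 0.186 and 0.891). Eif3m, another subunit of eIF3, stood at 63.6 ± 10.1 CPM in WT and 59.5 ± 10.5 CPM in KO. Gm18234 had 0 counts in all 3 WT libraries and 52, 47 and 77 in KO. Against the 3 counts that a count of 0 allows over the WT group, its mean of 2.10 ± 0.39 CPM (SD, n = 3) is at least 62.6-fold higher, for counting error only (edgeR adjusted p = 0.00188). The Gm18234 call was lost without batch 1 (0.0589) or batch 3 (0.191). Zfp106, an RNA-binding zinc finger protein, was at 274.2 to 301.3 CPM in WT and 261.2 to 290.8 CPM in KO (-0.09 ± 0.06, adjusted p = 0.901). The summed values of each pair overlapped between the genotypes. They were 69.8 ± 14.2 CPM in WT against 68.7 ± 25.4 CPM in KO for Pcna with Pcna-ps2. For Eif3m with Gm7658 they were 63.8 ± 10.1 against 61.4 ± 10.5 CPM. In KO the copies added 4.75 CPM (Pcna-ps2) and 1.90 CPM (Gm7658), less than the SD of the sums. These sums therefore follow the parents and cannot show whether copy and parent balance.

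**Figure D3:**
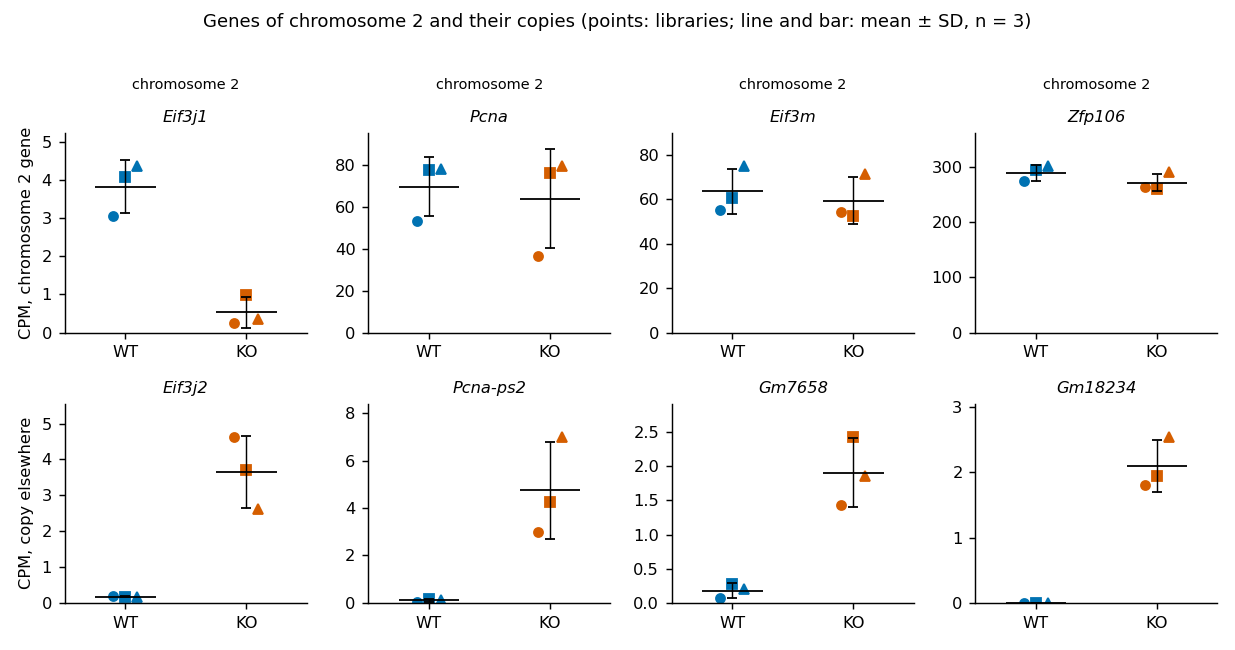
CPM of 4 chromosome 2 genes (top) and of their closest copies on other chromosomes (bottom) in WT and KO libraries, with points for libraries and lines with bars for mean ± SD (n = 3). The 4 copies are at or near 0 in WT and higher in all KO libraries, whereas of the parents Eif3j1 alone was called, with KO at 0.244 to 0.989 CPM and WT at 3.05 to 4.35 CPM.

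Ide and Wdfy1 were the called genes that fell outside chromosome 2, and their transcripts share almost no 50-base run with other genes (0% and 0.378%). Ide (ENSMUSG00000056999, chr19:37268743-37337852), the insulin-degrading enzyme, had 9155, 8016 and 8932 counts in WT and 4056, 2822 and 4036 in KO, the most counts of any called gene. Its level fell 2.24-fold, from 291.1 ± 12.6 to 130.3 ± 12.8 CPM (SD, n = 3 each), with a log2 difference of -1.16 ± 0.06 and an edgeR adjusted p of 1.15e-08. Fgfbp3, a carrier of fibroblast growth factors on the same chromosome (chr19:36917550-36919615), had 226, 135 and 267 counts in WT and 60, 40 and 96 in KO. The groups did not overlap, but its log2 difference of -1.60 ± 0.31 was not called (edgeR adjusted p = 0.102; 0.00152 with DESeq2). Btaf1 (chr19:36926079-37012752), a regulator of TATA-binding protein that lies between them, was at 84.4 ± 15.8 CPM in WT and 68.5 ± 20.1 CPM in KO (-0.32 ± 0.10, adjusted p = 0.894). Wdfy1 (ENSMUSG00000073643, chr1:79702262-79776143), an endosomal adaptor of Toll-like receptor signalling, had 51.0, 46.6 and 32.0 CPM in WT and 15.3, 20.2 and 12.6 CPM in KO. All KO values were below all WT values, and the log2 difference was -1.42 ± 0.15 (edgeR adjusted p = 0.000162), a call that no single library ended. The Wdfy1 call was lost without the batch block (edgeR adjusted p = 0.577) and with the 6 RW libraries alone (0.0689).

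Ide, Wdfy1 and Fgfbp3 belong to a list of 10 genes reported to vary between colonies of C57BL/6 mice, a list compiled with the results of these data known. Of its 6 members tested, Ide and Wdfy1 were called by edgeR, against 0.0819% of all genes tested, and the median log2 difference was -1.17. Mmrn1, a platelet and endothelial matrix protein, went the other way with 53, 105 and 35 counts in WT and 154, 64 and 64 in KO, groups that overlap (0.77 ± 0.50, unadjusted p = 0.143). Nnt, whose deletion marks the C57BL/6J substrain, had 29 counts over the WT group and 13 over the KO group, and Entpd4, Crb1 and Nlrp12 had 0 in all 6 libraries. Cyfip2, which carries a substitution in C57BL/6N mice, had 165 and 175 counts. Counts per gene cannot show such a substitution.

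Dynlt1b and Ripply1 complete the called genes. Dynlt1b (ENSMUSG00000096255, chr17:6430112-6436293), a light chain of the dynein motor, was at 7.54, 8.67 and 9.63 CPM in WT and 12.1, 19.1 and 16.8 CPM in KO (log2 difference 0.88 ± 0.15, edgeR adjusted p = 0.0272). It is 1 of several near-identical genes on chromosome 17, and 83.2% of its runs of 50 bases occur in another gene, so its counts are uncertain. Dynlt1a and Dynlt1f did not follow, with log2 differences of -0.14 ± 0.26 and -0.13 ± 0.24, and the sum of the 4 family members was 18.3 ± 2.78 CPM in WT and 24.7 ± 4.01 CPM in KO. The call was lost in 5 of the 6 omissions of a single library (adjusted p 0.0939 to 0.307) and kept without KO library 1. Ripply1 (ENSMUSG00000072945, chrX:139779549-139782353), a transcriptional corepressor known from the segmentation of somites, had 3, 0 and 1 counts in WT and 24, 18 and 15 in KO. The groups were apart, and the log2 difference was 3.87 ± 0.64 (edgeR adjusted p = 0.0189), but the call was lost without KO library 2 or 3 or any WT library (adjusted p 0.0522 to 0.134).

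Further genes away from Rasgrp1 headed the ranking by unadjusted p without passing the adjusted threshold in edgeR. Gal, which encodes the neuropeptide galanin, had 12, 4 and 16 counts in WT and 40, 68 and 55 in KO (2.74 ± 0.59, adjusted p = 0.242). Csf3, the granulocyte colony-stimulating factor, had 10, 90 and 55 counts in WT and 52, 214 and 106 in KO, with overlapping groups but the higher value in KO in each pair (1.45 ± 0.32, adjusted p = 0.259). Sirpa, a receptor for CD47 that lies 12.3 Mb from Rasgrp1, was at 39.3 ± 2.75 CPM in WT and 61.5 ± 6.80 CPM in KO (0.64 ± 0.14, adjusted p = 0.248). H2-Q4, a class I histocompatibility gene, was at 69.8 ± 5.00 and 102.0 ± 27.1 CPM (0.51 ± 0.11). Samd9l, an interferon-inducible gene, was at 20.3 ± 2.38 and 35.0 ± 3.45 CPM (0.77 ± 0.17, adjusted p = 0.259 for both). On the lower side were Wnk4, a kinase that controls ion transport (-1.16 ± 0.26), Asprv1, a protease of cornifying skin (-0.80 ± 0.20), Il1rn, the interleukin 1 receptor antagonist (-0.38 ± 0.10), Pisd-ps1 (-1.08 ± 0.27) and Zfp273 (-1.69 ± 0.44), with adjusted p-values from 0.259 to 0.528. DESeq2 with batch called Gal, Wnk4, Csf3, Sirpa, H2-Q4, Samd9l and Fgfbp3.

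No gene of the Ras-ERK or EGF receptor pathways was called by edgeR or DESeq2. All 25 feedback and target genes of Ras-ERK signalling were tested and 0 were called by edgeR (smallest adjusted p = 0.894), with 1, Spred2, at an unadjusted p under 0.05. Their median log2 difference was 0.48, and 23 of 25 were above 0, against 49.6% of all genes tested. The summed level was 1884, 4978 and 3118 CPM in KO and 2001, 2271 and 2714 CPM in WT batches 1 to 3. KO library 2 stood far above the other 5, and the median difference within the pairs was -0.10, 1.21 and 0.18. Without batch 2 the list's median was 0.12. Ccnd1, the D1 cyclin, was at 744.7, 815.1 and 892.7 CPM in WT and 712.0, 728.5 and 896.7 CPM in KO. Phlda1 and Ier3, targets of ERK signalling, had log2 differences of 0.32 ± 0.29 and 0.58 ± 0.28. Dusp6, the ERK phosphatase, and Fosl1, an AP-1 factor, both named after their values were seen, showed the weight of KO library 2. Dusp6 was at 60.0, 66.8 and 91.3 CPM in WT and 45.5, 359.6 and 116.1 CPM in KO, and Fosl1 at 2.69, 8.15 and 7.54 CPM in WT and 2.51, 95.2 and 10.7 CPM in KO.

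Immediate early genes, which answer growth factors and stress within minutes, stood out in the same library. Of 23 tested, 0 were called by edgeR and 1 had an unadjusted p under 0.05, although all 23 fitted log2 differences were above 0 (median 0.36). The sums were 8373, 11830 and 8646 CPM in WT and 5684, 21960 and 10260 CPM in KO. The pairs differed in direction, with medians of -0.44, 1.35 and 0.28, and without batch 2 the median was -0.07. Egr1 was at 2218, 2946 and 2424 CPM in WT and 1529, 3520 and 2864 CPM in KO, Fos at 1024, 1442 and 649.4 CPM against 540.8, 2116 and 968.4 CPM, and Junb at 739.9, 940.9 and 749.2 CPM against 566.3, 1442 and 920.8 CPM. Organoids were dissociated with TrypLE before RNA extraction, a step known to induce such genes, and its part in the values was not tested.

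The receptors and ligands of the EGF family gave no call among 18 genes tested (median 0.13, 12 above 0, 1 lower at an unadjusted p under 0.05). Erbb3 was at 306.2 to 391.9 CPM in WT and 303.5 to 362.8 CPM in KO. Errfi1 and Lrig1, which restrain EGF receptor signalling, had log2 differences of 0.74 ± 0.43 and 0.25 ± 0.16. Egfr was at 134.2 to 162.2 CPM in WT and 136.9 to 188.6 CPM in KO, and Erbb2, the member at an unadjusted p of 0.0306, at 174.6 to 210.4 CPM and 114.6 to 204.1 CPM (both named after their values were seen). Among 22 Ras genes, exchange factors and GTPase-activating proteins tested, 0 were called by edgeR and 3, Rasgrp1, Hras and Rras2, had an unadjusted p under 0.05. Dab2ip, Nras and Rasal1, the most abundant, differed by 0.08 ± 0.06, 0.06 ± 0.07 and -0.10 ± 0.11 on the log2 scale.

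The Wnt pathway, driven in these cultures by the medium, showed no call by either tool. Of 23 targets and feedback genes tested, 2 had an unadjusted p under 0.05 (Prox1 and Rnf43, both higher in KO), 14 were above 0 and the median was 0.05. Ccnd1 and Cd44 had log2 differences of -0.07 ± 0.09 and 0.03 ± 0.10, and Sox9 was at 386.5, 333.4 and 269.2 CPM in WT and 398.2, 225.3 and 262.4 CPM in KO. Axin2, a feedback gene used as a readout of beta-catenin, was at 20.7, 41.7 and 54.4 CPM in WT and 19.95, 78.5 and 74.6 CPM in KO (0.44 ± 0.36, unadjusted p = 0.248). Lgr5, an R-spondin receptor and target, was at 183.6, 85.8 and 117.3 CPM in WT and 170.4, 89.7 and 117.9 CPM in KO (-0.02 ± 0.14), closer between genotypes within a batch than between batches. Axin2 and Lgr5 were chosen after their values were seen. For 29 Wnt ligands and receptors the median was -0.001, with 14 above 0 and 1 in each direction at an unadjusted p under 0.05. Lrp5, Lgr6 and Fzd7 differed by 0.06 ± 0.07, -0.004 ± 0.10 and 0.02 ± 0.08.

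Lineage, stem cell and milk genes were likewise not called by either tool. The median log2 difference was 0.15 over 20 basal and myoepithelial genes, 0.05 over 16 luminal genes and -0.04 over 12 genes of hormone-sensing cells. It was 0.12 over 17 genes of luminal progenitors, 0.09 over 21 genes used to mark mammary stem cells and 0.24 over 16 milk and alveolar genes. Between 0 and 2 members of each list had an unadjusted p under 0.05. The basal keratins Krt5 and Krt14 were at 2531 to 3647 CPM and 2434 to 3542 CPM in WT and 2501 to 3457 CPM and 2346 to 3280 CPM in KO. Kit, a receptor of luminal progenitors, differed by 0.09 ± 0.14, and Elf5, a factor of the alveolar lineage named after its value was seen, by -0.01 ± 0.12. Muc15, a mucin of the milk fat membrane that lies 6.54 Mb from Rasgrp1, was at 529.3, 314.4 and 600.6 CPM in WT and 656.9, 524.6 and 765.7 CPM in KO. It was higher in KO in each pair, with a log2 difference of 0.45 ± 0.14 (unadjusted p = 0.00571, adjusted p = 0.894).

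Interferon-stimulated genes, which act against viruses, differed between the genotypes in 1 batch far more than in the others. All 31 were tested and 0 were called by edgeR, while 14 were higher in KO at an unadjusted p under 0.05, against 2.93% of all genes tested, and all 31 were above 0 (median 0.66, smallest adjusted p = 0.289). Their summed level was 621.9, 594.7 and 544.3 CPM in WT and 623.3, 842.0 and 1438 CPM in KO batches 1 to 3. KO library 1 was level with WT, KO library 2 above it and KO library 3 far above, and the median differences within the pairs were -0.08, 0.46 and 1.94. Without batch 3 the list's median was 0.14, and without WT library 3 a single member had an unadjusted p under 0.05. Ddx58, a sensor of viral RNA, was at 91.9, 77.1 and 80.2 CPM in WT and 98.9, 84.9 and 134.8 CPM in KO. Ifi27 was at 62.2, 52.8 and 52.3 CPM in WT and 76.4, 70.1 and 88.2 CPM in KO, groups that do not overlap (0.48 ± 0.11, edgeR adjusted p = 0.289; 0.0331 with DESeq2). Irf9, a subunit of the factor that drives these genes, was at 57.8, 46.8 and 50.9 CPM in WT and 49.2, 77.4 and 112.8 CPM in KO.

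Antigen presentation genes followed the same order of libraries in KO but not in WT. Of 18 tested, 0 were called by edgeR and 6 were higher in KO at an unadjusted p under 0.05, against 2.93% of all genes tested, with a median of 0.25. The median was 0.10 without WT library 3, and the number at an unadjusted p under 0.05 ran from 2 without the batch block to 11 without WT library 1. H2-K1 and H2-D1, class I heavy chains, were at 554.5, 516.3 and 573.2 CPM and 462.8, 423.1 and 506.9 CPM in WT. In KO they were at 548.5, 713.2 and 951.7 CPM and 501.2, 638.6 and 819.6 CPM. B2m, their common light chain, was at 526.4, 499.8 and 503.3 CPM in WT and 602.4, 703.7 and 890.9 CPM in KO, groups that do not overlap, with a log2 difference of 0.48 ± 0.18 (unadjusted p = 0.0209). B2m lies 4.8 Mb from Rasgrp1 and so also counts among its neighbours. Of 14 myeloid markers 12 were below 0, none had an unadjusted p under 0.05, and the median was -0.73, with pair medians of -0.03, -0.50 and -1.25. Their summed levels overlapped, at 229 to 366.9 CPM in WT and 299.1 to 354.8 CPM in KO. The part of such cells in the interferon result was not tested.

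**Figure D4:**
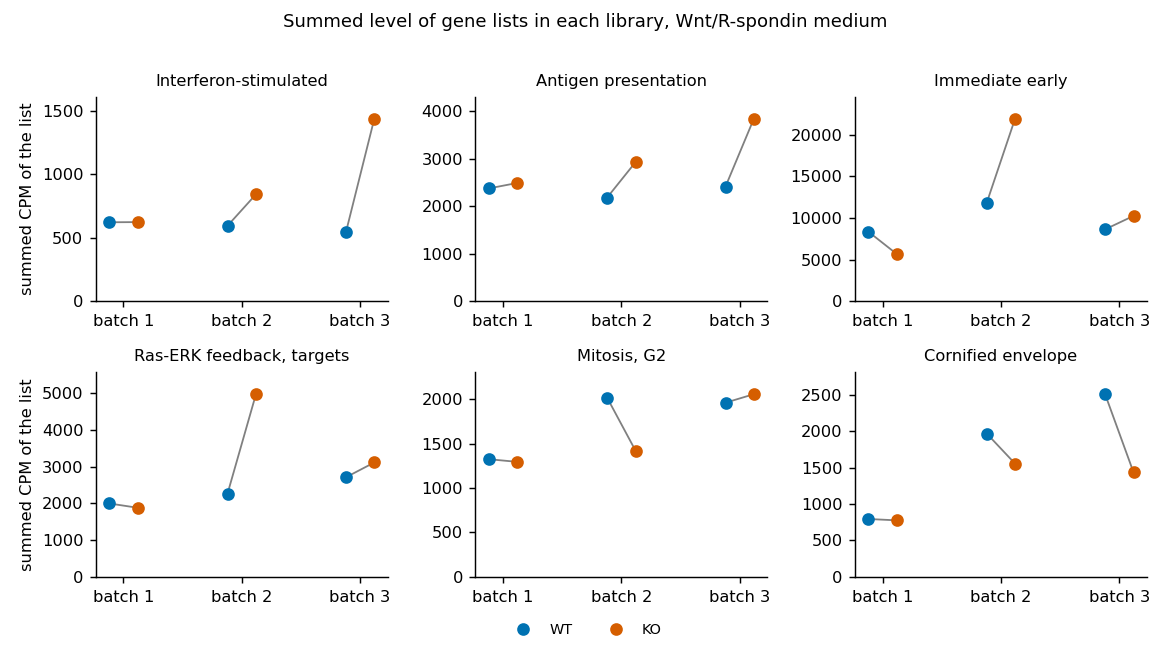
Summed CPM of the tested members of 6 gene lists in each library, with a grey line joining the KO and WT libraries of a batch. Interferon-stimulated genes reach 1438 CPM in KO batch 3 against 544.3 CPM in its WT partner, and immediate early genes reach 21960 CPM in KO batch 2.

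Mitosis and G2 genes gave no call, and the pairs differed in direction. All 25 had fitted log2 differences below 0, against 50.4% of all genes tested, but with a median of -0.14 and none at an unadjusted p under 0.05. The sums were 1325, 2017 and 1961 CPM in WT and 1295, 1421 and 2057 CPM in KO, with KO lower in batches 1 and 2 and higher in batch 3. The pair medians were -0.09, -0.48 and 0.09, and without batch 2 the median was 0.02. Mki67 was at 270.9, 454.4 and 386.5 CPM in WT and 307.4, 311.5 and 361.9 CPM in KO. DNA replication genes (25) had a median of -0.04. Genes of the cornified envelope and suprabasal keratins, which mark skin-like differentiation, had a median of -0.38, with 22 of 25 below 0 and 1, Dsg1a, at an unadjusted p under 0.05. Krt10 was at 129.1, 426.8 and 671.5 CPM in WT and 133.5, 339.8 and 228.7 CPM in KO, and Krt1 at 94.98, 253.9 and 589.5 CPM in WT and 102.3, 254.2 and 159.7 CPM in KO. Both genes were level in batch 1 and lower in KO in batch 3.

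The remaining lists held no gene called by edgeR, and among their DESeq2 calls was Cxcl2 (adjusted p = 0.00758), a chemokine for neutrophils. Their medians were 0.13 for collagens and matrix genes (28 of 33 above 0), 0.17 for mesenchymal transition genes, 0.18 for matrix metalloproteinases and their inhibitors, 0.08 for Notch genes, 0.23 for inflammatory chemokines and acute-phase genes, 0.13 for heat-shock and unfolded protein genes (20 of 20 above 0), 0.10 for hypoxia and glycolysis genes, 0.04 for p53 targets, -0.08 for NRF2 genes, -0.05 for cholesterol and fatty acid synthesis genes and -0.13 for cyclin-dependent kinase inhibitors and D-type cyclins. At an unadjusted p under 0.05 these lists held between 0 and 5 members each, against 5.2% of all genes tested. Higher in KO at that threshold were 4 of 20 heat-shock, 4 of 27 inflammatory and 3 of 20 metalloproteinase list genes, against 2.93% of all genes. Log2 differences above 0 made up 49.6% of all genes tested. Without batch 2 the heat-shock and inflammatory medians were 0.04 and 0.02. These shares were not tested. Among markers of other cells the medians were 0.34 for endothelium (2 of 14 at an unadjusted p under 0.05), 0.13 for fibroblasts, 0.22 for pericytes, 0.14 for adipocytes, 0.45 for skeletal muscle, -0.21 for Schwann cells and -0.46 for the 4 lymphocyte markers tested. Without KO library 1 the adipocyte and skeletal muscle medians were -0.33 and -0.36. Over all 38 lists the median changed sign under at least 1 alternative in 19, among them the fibroblast, Schwann cell, lymphocyte, luminal, cholesterol and DNA replication lists. In these lists 642 distinct genes were tested, and Ide and Wdfy1 were the only ones called by edgeR. DESeq2 called 7 list genes, among them Ide, Wdfy1, Fgfbp3, Ifi27, H2-Q4 and Cxcl2.

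**Figure D5:**
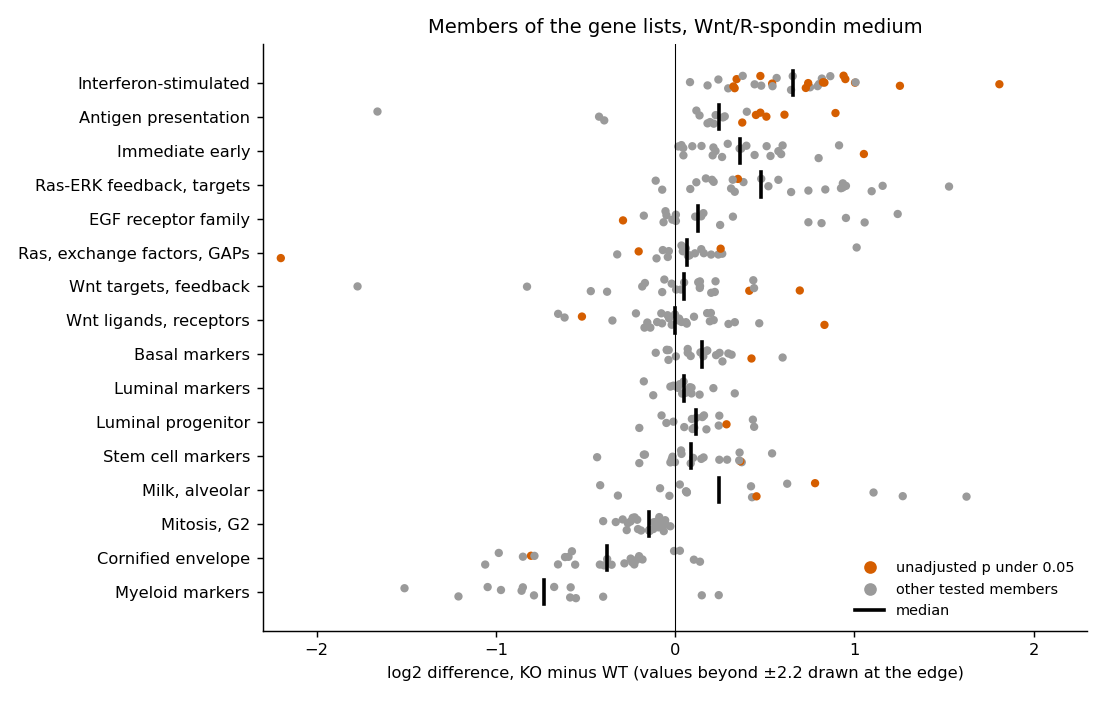
Log2 difference (KO minus WT) of each tested member of 16 gene lists, with black bars for medians and orange points for an unadjusted p under 0.05; values beyond the axis are drawn at its edge. By edgeR no member shown was called, the interferon-stimulated genes all lie above 0 (median 0.66) and the mitosis genes all lie below 0 (median -0.14).

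The same genotype contrast in the other media used other libraries, treated in parallel in the same batches. Whether cultures of 1 genotype and batch came from the same animals is not given in the sources used here. In EGF medium 12 genes were called (0.0702%; 3.26% of genes at an unadjusted p under 0.05), of which 11 are among the 14 called in RW medium, and in ERW medium 14 (0.0819%; 4.14% unadjusted), of which 10 are among those 14. Ide fell by 1.16 ± 0.06 on the log2 scale in EGF and by 1.10 ± 0.06 in ERW medium, and Wdfy1 by 1.59 ± 0.15 and 1.85 ± 0.15. Eif3j2 rose by 4.39 ± 0.40 and 4.96 ± 0.41, Pcna-ps2 by 5.01 ± 0.63 and 5.19 ± 0.65, and Mapkbp1 by 0.80 ± 0.09 and 0.75 ± 0.09. Bloc1s6, Tmem87a and Ripply1 were called in neither of the other media. Bloc1s6 and Tmem87a had log2 differences of 0.55 ± 0.12 and 0.42 ± 0.08 in EGF and 0.41 ± 0.12 and 0.36 ± 0.08 in ERW medium. Ckmt1, a mitochondrial creatine kinase 4.01 Mb from Rasgrp1, was called in EGF (1.24) and ERW medium (0.85) but not in RW medium (0.47 ± 0.11, adjusted p = 0.423). Duoxa1, Tyro3 and Sirpa were called in ERW medium alone of the 3.

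Whether the genotype difference depended on the medium was tested with interaction terms. By edgeR 0 of 17092 genes were called for RW against EGF medium (0%; 356 genes, 2.08%, at an unadjusted p under 0.05) and 0 for RW against ERW medium (0%; 286 genes, 1.67%). Both unadjusted shares lie below the 0.05 that this threshold allows when no gene differs. The fit also did not pair libraries of the same genotype and batch across media. The 0 calls therefore do not show that the genotype difference was the same in each medium. DESeq2 called 33 and 44 genes, of which 31 and 42 had under 100 counts over the 18 libraries. Ripply1 had the smallest p in both tests. Its mean level was 2.34 ± 0.92 CPM in WT and 2.25 ± 0.07 CPM in KO in EGF medium, 1.66 ± 0.69 and 1.48 ± 0.55 CPM in ERW medium, and 0.0439 ± 0.05 and 0.691 ± 0.176 CPM in RW medium (SD, n = 3 each). WT organoids of RW medium thus had the lowest level of the 6 groups. The interaction on the log2 scale was 3.86 ± 0.78 (SE) against EGF medium and 4.0 ± 0.78 against ERW medium, with an edgeR adjusted p of 1 for both and DESeq2 adjusted p-values of 0.0208 and 0.00882. Ckmt1 differed by -0.78 ± 0.16 between RW and EGF medium (edgeR adjusted p = 1, DESeq2 adjusted p = 0.0209). The interaction for Asprv1 was -1.16 ± 0.30 against EGF medium (edgeR adjusted p = 1).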

How the data were processed

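The authors deposited a table of whole-number read counts per Ensembl gene for the 18 libraries, and a table of their own comparisons with log2 fold changes, p-values and adjusted p-values. Per the submitters' processing notes, STAR, DESeq2 and GRCm38 were used; their versions, the annotation release, the counter and its strand setting were not given in the sources used here. Each library started from 100 ng RNA and was read as single ends of 50 bases, per the labels' protocols. Coordinates are from the deposited table or GENCODE M21, in which 49995 of 52489 genes with a position in both have the same start and end.

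From the counts, edgeR 4.0.16 (R 4.3.3) was run on all 18 libraries with TMM factors, filterByExpr (minimum count 10, minimum total 15), 1 mean per group and batch as an additive block (10 residual degrees of freedom), with robust quasi-likelihood F-tests, two-sided, and Benjamini-Hochberg adjustment over the 17092 genes tested. The script was checked on simulated counts. CPM use TMM-scaled library sizes; SE and SD are marked. Batch comes from the labels: deviations of same-numbered KO and WT libraries from their group means correlated at 0.382, 0.247 and 0.315, and other pairs at -0.0276 or less. Deviations within a group cancel out, so the negative values follow in part from the positive ones and are no separate evidence for the pairing. Copies were sought with blastn 2.17.0. Alternatives are DESeq2 1.42.0 with batch, other filters and size factors, fits without the block, without a library or batch, or with the 6 RW libraries alone, and other windows around Rasgrp1. No other column of per-sample values was used.

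The comparison, its 29 gene lists and 9 marker lists were chosen with earlier results of these data known. Named genes were Rasgrp1; called genes whose symbol is no predicted-gene name, with at least 1 CPM and the same sign in all 3 pairs, completed by smallest p with genes not called; called genes within 10 Mb of Rasgrp1; the most abundant members of each list; and the top interactions. Gm7658, Gm18234 and Ripply1 fall outside this rule and were named after their values were seen.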

Additional observations from a re-analysis of the deposited data

How the results depend on the processing

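Of the 14 called genes, 1 (Ide) kept its call under all 16 alternatives and none reversed. Called genes numbered 14 in the fit reported (11 higher, 3 lower), 5 (4 and 1) with no replicate block, 1 (0 and 1) with a replicate block and the 6 RW libraries only, 77 (47 and 30) with DESeq2 and 8 (5 higher) with a replicate block within each medium, an alternative chosen after seeing the data. Leaving out single libraries or a whole batch gave 3 to 13 called genes, 1 to 10 of them higher and 2 to 4 lower. Genes called near Rasgrp1 numbered 6, against 0 with no replicate block, 0 with the 6 libraries only and 0 to 5 with a library or batch left out. Called list genes numbered 2, against 1 with no replicate block, 1 with the 6 libraries only and 7 with DESeq2. In EGF medium 62 genes were called with DESeq2, and 5 to 15 when a library or batch was left out. In ERW medium it was 68 with DESeq2, 6 with no replicate block and 4 to 16 when a library or batch was left out. The interactions gave 33 (EGF) and 44 (ERW) calls with DESeq2 and 0 under every edgeR alternative run. RLE size factors and both other filters gave 14 to 15 calls that include the 14; causes of the other changes were not tested. The median changed sign under at least 1 alternative in 19 of the 38 lists, among them mitosis (0.02) and immediate early genes (-0.07) without batch 2, and skeletal muscle (-0.36) and adipocytes (-0.33) without KO library 1. Rasgrp1, with 10 to 28 counts in a WT library, and the low copies are limited by depth.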
